A study of Mus musculus with 8 samples.

Results

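Open chromatin around the genes for the MEF2 transcription factors (Mef2a, Mef2b, Mef2c and Mef2d), the class IIa histone deacetylases (Hdac4, Hdac5, Hdac7 and Hdac9) and serum response factor (Srf) was described in mouse cortical neurons. The 9 genes were taken from the 21887 protein-coding genes of the RefSeq annotation of GRCm38. Every ATAC-seq peak within 50 kb of the body of a gene was assigned to it, and overlapping peaks of the 4 deposited lists were merged into regions. Of 62023 regions in all, 105 lay within this distance of the 9 genes. Each gene is on its own chromosome, so no region was counted for more than 1 of them.

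MEF2 factors bind A/T-rich DNA through a MADS box and activate or repress genes in developing and active neurons. Class IIa deacetylases bind MEF2 and recruit corepressors to it, and calcium-dependent kinases drive them out of the nucleus when neurons are depolarised, while the phosphatase calcineurin acts on MEF2 itself. SRF is the related MADS-box factor that binds CArG boxes and works with the TCF and MRTF cofactors at immediate early and cytoskeletal genes.

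The neurons were cultured from the cortex of E16.5 embryos, and ATAC-seq, which reads where the Tn5 transposase can cut DNA, was made from 50000 cells per library. Neurons of genotype BAF53bCre Brg1F/F (cKO), in which Cre under the neuronal gene BAF53b deletes Brg1, were taken after 50 mM KCl for 1 h on day 6 in vitro (cKO KCl) or with no KCl (cKO basal). Neurons labelled Brg1 WT, with no further allele given, were taken after the same KCl treatment (WT KCl) or with no KCl (WT basal). Brg1, encoded by Smarca4, is the catalytic subunit of BAF, a complex that moves nucleosomes, and cells other than neurons in the culture are not targeted by this Cre. KCl depolarises neurons. For depolarisation the protocol adds TTX at 1 µM and APV at 100 µM on day 5 to silence the culture, and it does not say whether basal cultures received them. Each condition had 2 libraries and 1 deposited list of peaks, so every value below is that of 1 list and has no replicate error.

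The DNA at 4 starts of these genes is printed first. A peak lay over them in all 4 lists (Srf and Mef2a) or in the KCl lists of both genotypes only (Hdac5 and Hdac9). Each holds a match to a motif searched for. The start of Hdac4, with a peak in all 4 lists and matches to TGACG, does so too and is not printed. The windows are from RefSeq on GRCm38.p6, 250 bases before to 50 bases after the start, all on the minus strand, written 5′ to 3′ along the gene. Capitals mark matches to the CArG box in Srf, to the MEF2 site in Mef2a and Hdac5, to the AP-1 motif TGANTCA in Hdac9, and to TGACG, the core of the cAMP response element (CRE), in Srf and Hdac5.
Srf (chr17:46556113-46556412): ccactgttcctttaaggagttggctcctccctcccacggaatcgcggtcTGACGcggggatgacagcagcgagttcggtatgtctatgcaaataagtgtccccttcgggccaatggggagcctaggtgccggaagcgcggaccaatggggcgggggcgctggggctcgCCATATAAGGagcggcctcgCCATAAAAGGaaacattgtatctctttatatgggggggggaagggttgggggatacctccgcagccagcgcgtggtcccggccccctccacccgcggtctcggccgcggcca
Mef2a (chr7:67372809-67373108): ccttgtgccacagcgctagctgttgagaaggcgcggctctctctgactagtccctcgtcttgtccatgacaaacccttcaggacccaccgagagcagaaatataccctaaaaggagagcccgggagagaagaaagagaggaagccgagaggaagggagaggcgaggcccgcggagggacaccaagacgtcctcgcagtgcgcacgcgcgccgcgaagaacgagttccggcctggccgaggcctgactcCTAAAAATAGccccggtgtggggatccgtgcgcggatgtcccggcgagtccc
Hdac5 (chr11:102230123-102230422): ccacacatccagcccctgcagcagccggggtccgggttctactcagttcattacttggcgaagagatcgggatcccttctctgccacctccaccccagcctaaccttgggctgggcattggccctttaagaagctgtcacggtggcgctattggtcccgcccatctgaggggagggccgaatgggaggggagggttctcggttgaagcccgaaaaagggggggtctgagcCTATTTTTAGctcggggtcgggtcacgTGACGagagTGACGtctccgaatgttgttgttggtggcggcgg
Hdac9, internal start (chr12:34528840-34529139): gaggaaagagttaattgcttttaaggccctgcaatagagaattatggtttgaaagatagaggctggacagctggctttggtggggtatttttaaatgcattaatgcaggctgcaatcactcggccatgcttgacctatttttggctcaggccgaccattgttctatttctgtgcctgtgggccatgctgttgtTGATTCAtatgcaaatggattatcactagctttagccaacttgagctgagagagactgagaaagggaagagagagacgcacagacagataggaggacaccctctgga

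Both strands were searched in 21263 promoter windows of the table, 15 of which belong to the 9 genes. A CArG box was found in 1.52% of all windows and, among the 15, only in that of Srf, which holds it at 2 places, from −82 to −73 and from −62 to −53 counted from the start base as 0. The MEF2 site, in 2.74% of all windows, was found at Mef2a, from −2 to 7, and at Hdac5, from −20 to −11. TGANTCA was in 6.99% of all windows and in 3 of the 15, at the internal start of Hdac9 from −57 to −51 and in 1 window each of Hdac7 and Mef2c. TGACG was in 23.6% of all windows and occurred at Hdac4, Hdac5 and Srf, and the full CRE, TGACG followed by TCA, was in 2.23% of all windows and in none of the 15. The GC box GGGCGG was in 46.2% of all windows and 7 of the 15, and CCAAT in 38.2% and 7 of the 15. A match says only that these letters are present.

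The 4 lists held 25690 peaks in cKO KCl, 20484 in cKO basal, 20229 in WT KCl and 34061 in WT basal. The fragment pileup (the number of fragments over a peak's summit) was recovered from the authors' fold and p-value, and the background floor of the lists was between 8.23 and 9.47 fragments, a range of 1.15 times. The median summit pileup was between 30 and 33 fragments. Smarca4 had a peak within 1 kb of an annotated end of the gene (a gene-end peak) in all 4 lists. Whether the deletion removes that site is not given, so it checks no genotype. Among 10 neuronal marker genes, those with such a peak numbered 6 in cKO KCl, 6 in cKO basal, 5 in WT KCl and 6 in WT basal, including Tubb3, Map2, Syt1 and Neurod6 in every list, while Rbfox3 and Slc17a7 were among those with none in any. Of 4 microglial markers, 0 had such a peak in any list, of 4 oligodendrocyte-lineage markers 2 had one in each list, and of 4 astrocyte markers 3 had one in WT basal and 0 in the other lists. Endothelial markers had one in 2, 2, 1 and 1 of 4, inhibitory-neuron markers in 1, 1, 1 and 0 of 4 and progenitor markers in 1, 1, 1 and 2 of 3, in the order cKO KCl, cKO basal, WT KCl and WT basal.

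The 9 genes carried 45 regions in cKO KCl, 41 in cKO basal, 28 in WT KCl and 56 in WT basal. With every list cut to the same number of its strongest peaks, the order of the basal lists turned round, with 40 regions in cKO basal and 36 in WT basal, while cKO KCl held 37 and WT KCl 29. A single list held 66 of the 105 (62.9%, exact 95% Clopper-Pearson interval 52.9 to 72.1), against 69.1% of the 52951 regions within 50 kb of any protein-coding gene. A peak in all 4 lists was found in 8 regions (7.62%, 3.35 to 14.5), against 13.1% of all regions near genes. Regions in 2 lists numbered 21 (interval 12.8 to 28.9%; 11.3% near all genes), and those in 3 lists 10 of 105 (9.52%, 4.66 to 16.8; 6.47% near all genes). Intervals cover counting error only, and regions of 1 gene are not independent. By position, 9 regions lay within 1 kb of a RefSeq start of their gene, 1 at the other end of the gene, 28 elsewhere within the body, 30 upstream and 37 downstream. Of these, 16 touched an end of another gene, and distance alone ties them to the gene described.

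The regions in 1 list had the lower median pileup. Their highest summit was between 22 and 40 fragments with a median of 31.0, while the 37 peaks of the regions in all 4 lists had 25 to 92 fragments with a median of 43.0, so the ranges overlapped. The fold of each was ranked within its own list, and the median of these percentiles over the single-list regions was 14.4. At the floor of its background, each list reported peaks from 20 to 22 fragments upward. In these bulk libraries, a site open in fewer cells and one less open in each cell cannot be told apart.

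The number of regions differed among genes, and so did the number per length. Srf had 17 regions, or 15.3 per 100 kb of the gene and its flanks, at percentile 99.8 of all protein-coding genes, and Mef2b had 14 (12.2 per 100 kb, percentile 98.5). Hdac5, with 14 regions (10.4 per 100 kb, percentile 95.4), and Mef2d, with 11 (8.45, percentile 87.5), followed, then Hdac7 with 11 (7.24, percentile 79.9) and Hdac4 with 21 (5.72, percentile 66.5). The other genes were below the middle of the range. Mef2a had 6 regions (2.45 per 100 kb, percentile 32.6), Mef2c had 4 (1.52, percentile 23.3) and Hdac9, whose body is 869.5 kb long, had 7 (0.722, percentile 14.6). The median over all protein-coding genes was 4.07 per 100 kb.

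**Figure D1:**
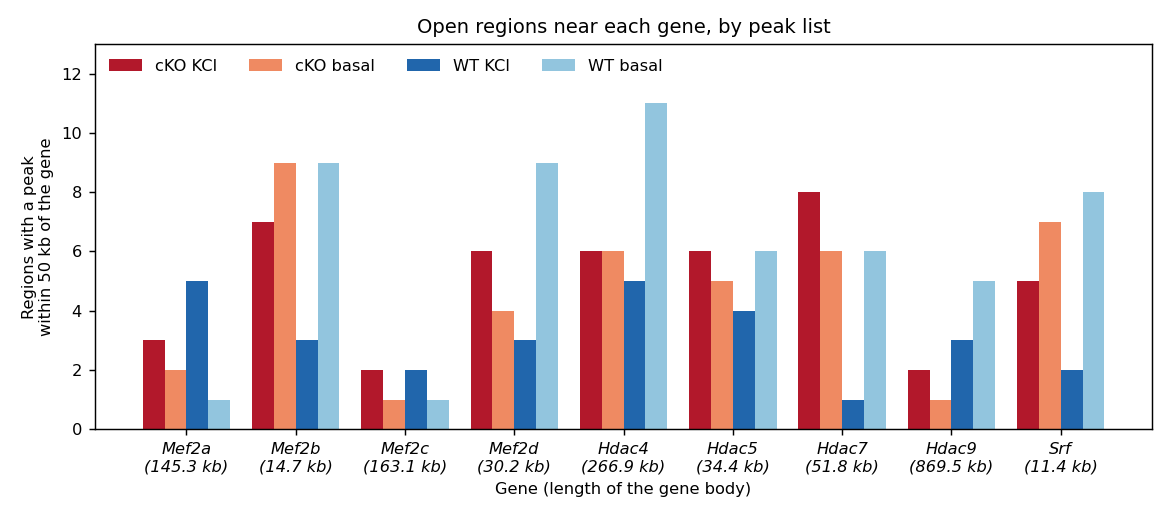
Bars give the number of regions with a peak within 50 kb of each gene in each of the 4 peak lists (cKO KCl, cKO basal, WT KCl, WT basal), with the length of the gene body in kb under its name. The WT KCl list, in dark blue, held 1 region near Hdac7 and 2 near Srf, where WT basal held 6 and 8, and Mef2a had 5 in WT KCl and 1 in WT basal.

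At their starts the genes fell into those open in every list, those with a peak in some lists and those with none. Mef2a, Hdac4 and Srf had a peak within 1 kb of a RefSeq start in all 4 lists. Mef2d had one in all but cKO basal, Mef2b in both basal lists, and Hdac9, at an internal start, in both KCl lists. Hdac5 had one in every list except WT basal, at different bases in cKO basal. Mef2c, with 3 RefSeq starts, and Hdac7, with 4, had none in any list. This makes 6 of 9 genes in cKO KCl, 5 in cKO basal, 6 in WT KCl and 5 in WT basal, against 47.6, 41.1, 42.1 and 48.3% of the 17492 genes of the promoter table. The annotated gene body of Mef2a, Srf and Hdac4 extends 3.60, 2.10 and 15.4 kb beyond these starts, so a count by annotated gene ends misses them and gives 3, 2, 2 and 2 of 9 genes, against 45.2, 38.8, 39.8 and 46.5% of all genes.

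**Figure D2:**
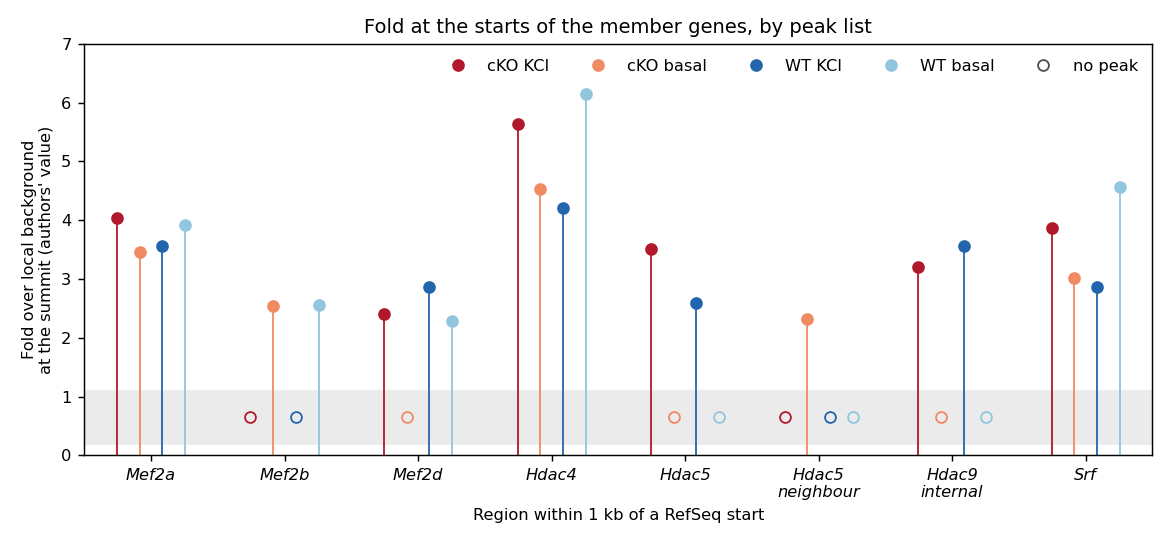
Filled points give the fold over local background, as the authors' caller gave it, of each region within 1 kb of a RefSeq start in the 4 lists, and open circles in the grey band stand for no peak in that region; the second, WT basal only, region at Mef2d is not drawn. Hdac4 and Srf were highest in WT basal (6.15 and 4.56), while the region over the Hdac5 start and that over the internal Hdac9 start had filled points in both KCl lists and open circles in both basal lists. The neighbouring Hdac5 region had a filled point in cKO basal (2.32).

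Mef2a, a MEF2 factor active in postmitotic neurons, is on chromosome 7 (67231163 to 67376456, minus strand). Its start region (67372548 to 67373647) had a fold over local background, the authors' value at the summit, of 4.04 in cKO KCl, 3.46 in cKO basal, 3.56 in WT KCl and 3.92 in WT basal. The pileups were 40, 38, 38 and 45 fragments, so the start was open in every list at a like level, and the MEF2 site printed above lay under a peak in all 4. Away from the start, the Mef2a locus differed in kind. The other 5 regions held 0 peaks in WT basal, and 2 of them were present in the KCl lists of both genotypes and absent from the basal lists. The first, 45.1 kb upstream (67421570 to 67422010), had a fold of 3.60 in cKO KCl and 2.78 in WT KCl. The second, 8.43 kb downstream at an end of Lysmd4 (67222376 to 67222731), had 3.02 in cKO KCl and 2.95 in WT KCl. Pileups at these sites were 35 and 26 fragments upstream and 32 and 34 downstream, where cKO basal called peaks of like background from 22 and WT basal from 21 fragments. Like background, here and below, refers to the mean background of the lists with a peak at the site. That of a list without a peak there is not known, so its own threshold at the site may be higher or lower. The 3 single-list regions of Mef2a had folds of 2.49 to 3.06, the highest a cKO basal peak within the gene, 137.7 kb from the start.

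Mef2b, which encodes the most divergent MEF2 factor and is best known in lymphocytes, is a short gene of 14.7 kb on chromosome 8 with Ncan upstream and Slc25a42 downstream. Its start (70152470 to 70152811) had a peak in both basal lists, with a fold of 2.54 in cKO basal and 2.55 in WT basal (34 and 35 fragments), and no peak in either KCl list. At like background the KCl lists called peaks from 26 fragments in cKO and 27 in WT. Inside the gene past the start, the presence of a peak followed the genotype label. A region 5.64 kb past the start (70158399 to 70158832) had a fold of 2.66 in cKO KCl and 2.86 in cKO basal, and the far end (70166706 to 70167202), shared with the overlapping gene model Gm45929, had 2.50 in cKO KCl and 2.70 in cKO basal. Both were absent from both WT lists. The pileups were 31 and 32 fragments in cKO KCl and 40 and 37 in cKO basal. At like background WT KCl called peaks from 26 fragments at both, and WT basal from 24 and 26. A region within Ncan, 33.4 kb upstream, was in both basal lists instead (2.20 in cKO basal, 2.81 in WT basal).

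The strongest sites near Mef2b belonged to its neighbours by position. The region at an end of Slc25a42, 44.6 kb downstream, had a fold of 5.34 in cKO KCl, 5.56 in cKO basal, 4.38 in WT KCl and 5.06 in WT basal, and that at an end of Tmem161a, 4.76 kb downstream, had 3.53, 3.32, 3.89 and 3.84 in the same order. Regions 23.0 kb and 13.2 kb upstream, of which the nearer touched ends of Rfxank and Borcs8, were in every list but WT KCl. Their folds were 3.13 and 3.01 in cKO KCl, 3.21 and 2.62 in cKO basal, and 3.91 and 3.00 in WT basal. Of the 6 single-list regions the highest was in WT KCl (3.10, within Slc25a42), and the others lay between 2.08 and 2.63. In all, Mef2b had 7 regions in cKO KCl, 9 in cKO basal, 3 in WT KCl and 9 in WT basal.

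Mef2c, a MEF2 factor needed in cortical neuron development, had no peak within 1 kb of any of its 3 RefSeq starts on chromosome 13 and 4 regions in all. The windows at these starts hold 1, 10 and 4 CpG dinucleotides, and of all promoter windows with 0 to 4 CpG, 1.91% had a peak in cKO KCl, 1.21% in cKO basal, 1.04% in WT KCl and 2.02% in WT basal. Of windows with 10 or more CpG, to which the middle start belongs, 65.1% had one in cKO KCl, 54.8% in cKO basal, 57.6% in WT KCl and 64.3% in WT basal. The region shared by several lists lay 48.0 kb downstream within the noncoding gene Gm52046 (83715108 to 83715388). It had a fold of 3.22 in cKO KCl, 3.04 in WT KCl and 3.42 in WT basal, with 35, 32 and 39 fragments, and no peak in cKO basal, which at like background called peaks from 22 fragments. The other 3 were single-list regions, with a fold of 2.78 in cKO KCl, 2.58 in cKO basal and 2.82 in WT KCl, the last within the gene 5.14 kb from a start. A stronger site fell just outside the distance used, at 53.8 kb (83720922 to 83721473), with a peak in all 4 lists and a highest fold of 4.95. A further region at 54.5 kb had a peak in both KCl lists only (highest fold 2.75). At Hdac5 the nearest region outside was at 52.8 kb (cKO basal, 2.64). The regions just inside the distance were at 49.8 kb from Hdac5 (WT basal, 2.81), 49.9 kb from Srf (cKO KCl and WT basal, highest fold 3.21) and 49.9 kb from Mef2d (every list but WT KCl, highest fold 2.32).

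Mef2d, another MEF2 factor abundant in neurons, is on chromosome 3 (88141941 to 88172091, plus strand). Its start (88142147 to 88142493) had a fold of 2.40 in cKO KCl, 2.87 in WT KCl and 2.28 in WT basal and no peak in cKO basal. The pileups were 39, 42 and 42 fragments, and cKO basal called peaks from 31 fragments at like background. A weak second start peak 0.727 kb away was in WT basal only (1.93). The tallest site of the locus was not at the start but 5.54 kb past the end of the gene, in the noncoding gene 1700113A16Rik (88177633 to 88178312). There the fold of the highest peak was 5.55 in cKO KCl, 3.71 in cKO basal, 4.01 in WT KCl and 5.46 in WT basal, with 69, 49, 43 and 59 fragments, the highest in cKO KCl and WT basal. A further region in all 4 lists lay 42.3 kb downstream at Gm3764 and Mir3093, with 2.91, 2.35, 2.82 and 2.47 in the same order. Also at Gm3764, a region 49.4 kb downstream was in both basal lists (2.59 in cKO basal, 3.14 in WT basal) and its neighbour 119 bp away was in every list but WT KCl (2.32 in cKO KCl, 2.07 in cKO basal, 2.01 in WT basal). With peaks of −log10 q of at least 3 the region 42.3 kb downstream lacked its cKO basal peak and the neighbour had none, and at equal list lengths the first lacked its WT basal peak and the neighbour was in cKO basal only. Of the 6 single-list regions of Mef2d, 4 were in WT basal and 2 in cKO KCl, the highest a WT basal peak within the gene (2.69). Regions numbered 6 in cKO KCl, 4 in cKO basal, 3 in WT KCl and 9 in WT basal.

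Hdac4, a class IIa deacetylase strongly expressed in brain, had the most regions, 21 over a body of 266.9 kb on chromosome 1, and the strongest start of the 9 genes. The start region (92179965 to 92181011) had a fold of 5.63 in cKO KCl, 4.53 in cKO basal, 4.21 in WT KCl and 6.15 in WT basal, with 80, 67, 57 and 92 fragments. All 4 were above the median fold of their lists, which was between 2.82 and 3.08. Its window holds 32 CpG and TGACG at 3 places, all under a peak in every list. Inside the gene, 49.4 kb from the start, a region (92130442 to 92130985) had a fold of 4.05 in cKO KCl, 2.71 in cKO basal and 2.82 in WT KCl and no peak in WT basal, which called peaks from 21 fragments at like background. The 38, 28 and 25 fragments there put cKO KCl above the other lists.

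Most regions of Hdac4 were in 1 list. Regions 157.7 kb into the gene and 16.2 kb upstream were in cKO KCl and WT basal, with folds of 3.10 and 2.82 in cKO KCl and 2.84 and 2.79 in WT basal. The other 17 regions were in 1 list each, 8 of them in WT basal (2.28 to 3.37), 4 in cKO basal (2.45 to 3.72), 3 in WT KCl (2.30 to 2.63) and 2 in cKO KCl (2.57 and 2.81). The highest, a cKO basal peak of fold 3.72, lay 182 bp from a cKO KCl peak of 2.57, so that a site counted as list-specific by overlap had an open neighbour in another list. By the counts in the 4 lists (6, 6, 5 and 11), Dnah2 was the gene most like Hdac4, with the same counts and as the only such gene, followed by Myo1d and Hipk2 at a summed difference of 1, which 8 genes shared.

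Hdac5, the class IIa deacetylase exported from the nucleus of depolarised neurons, had its start region (102230126 to 102230427 on chromosome 11) open in the KCl lists of both genotypes and not in the basal lists. The fold was 3.51 in cKO KCl and 2.60 in WT KCl, with 41 and 29 fragments, where both basal lists called peaks from 22 fragments at like background. The MEF2 site and the TGACG matches printed above lay under the peak in both KCl lists and under none in the basal lists. Of all promoter windows 1.36% were covered in both KCl lists only. The cKO basal list had a peak 105 bp away, towards the gene (102229761 to 102230020), with a fold of 2.32, so that in cKO the start neighbourhood was open in both lists at different bases, and WT basal had no peak within 1 kb.

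Around Hdac5, 2 regions followed the genotype label. Those at an end of Tmem101, 39.3 kb downstream, and within Asb16, 46.3 kb upstream, were in both cKO lists and in neither WT list. Their folds were 2.95 and 2.69 in cKO KCl and 2.63 and 2.89 in cKO basal. The pileups were 30 and 27 fragments in cKO KCl and 31 and 32 in cKO basal. At like background WT KCl called peaks from 22 fragments and WT basal from 21. A region 14.9 kb upstream (102245025 to 102245463) had 3.76 in cKO KCl, 3.00 in cKO basal and 3.02 in WT KCl and no peak in WT basal, which called peaks from 21 fragments where these had 38, 34 and 29. An end of Lsm12, 10.5 kb downstream, was in both basal lists (2.77 in cKO basal, 3.01 in WT basal), and an end of Hrob, 18.7 kb upstream, in cKO KCl (2.87) and WT basal (2.36). The 8 single-list regions had folds of 2.25 to 3.02, the highest in WT basal 8.49 kb upstream. No region of Hdac5 was in all 4 lists.

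Hdac7, the class IIa deacetylase best known from thymocytes and endothelium, had no peak within 1 kb of its 4 RefSeq starts in any list. The windows of its middle starts hold 31 and 35 CpG, and 22.0% of all windows with 10 or more CpG had a peak in no list. The WT KCl list held 1 region near Hdac7, against 8 in cKO KCl, 6 in cKO basal and 6 in WT basal. That region, within Rapgef3 41.6 kb downstream on chromosome 15 (97750387 to 97751064), was in all lists, with a fold of 3.39 in cKO KCl, 2.36 in cKO basal, 2.95 in WT KCl and 2.78 in WT basal. Ends of Rapgef3 and Slc48a1, 24.7 and 8.11 kb downstream, were in every list but WT KCl, with folds of 2.65 and 2.94 in cKO KCl, 3.42 and 2.81 in cKO basal and 3.05 and 3.22 in WT basal. The WT KCl list called peaks from 30 and 29 fragments at like background, and the lists with a peak had 38 to 53.

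Regions in both cKO lists and in neither WT list were found at Slc48a1, 7.65 kb downstream of Hdac7 (2.76 in cKO KCl, 2.69 in cKO basal), and within Hdac7, 2.44 kb from its last start (2.38 in cKO KCl, 2.34 in cKO basal; 97812153 to 97812428). The pileups were 38 and 39 fragments in cKO KCl and 40 and 38 in cKO basal. At like background WT KCl called peaks from 27 and 31 fragments, and WT basal from 26 and 31. A region within Vdr, 12.7 kb upstream, was in cKO KCl (2.82) and WT basal (2.62). The Slc48a1 regions lie 172 bp apart, and WT basal had a peak at the first and not at the second. The 5 single-list regions of Hdac7 had folds of 2.17 to 2.44, the highest in WT basal 17.3 kb downstream.

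Hdac9, whose long gene includes an internal start, had 7 regions on chromosome 12, gathered near its starts. The internal start, 388.2 kb from the first, lay within a region (34528796 to 34529061) of fold 3.21 in cKO KCl and 3.57 in WT KCl and no peak in cKO basal or WT basal. It had 29 and 32 fragments at the background floor of the KCl lists, 8.36 in cKO KCl and 8.23 in WT KCl. The floors of the basal lists are higher, 9.47 in cKO basal and 9.30 in WT basal, so these lists hold no peak at like background. At their own floors they called peaks from 22 and 21 fragments. The window is poor in CpG, with 3, and its TGATTCA match to the AP-1 motif lay under the peak in both KCl lists. Near the first start, a region 21.0 kb inside the gene was in both basal lists (3.44 in cKO basal, 2.53 in WT basal), and another, 9.76 kb inside, had 2.78 in cKO KCl, 2.71 in WT KCl and 2.91 in WT basal. The 4 single-list regions had folds of 2.91 to 3.40, 3 of them in WT basal and the highest of them 36.3 kb upstream.

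**Figure D3:**
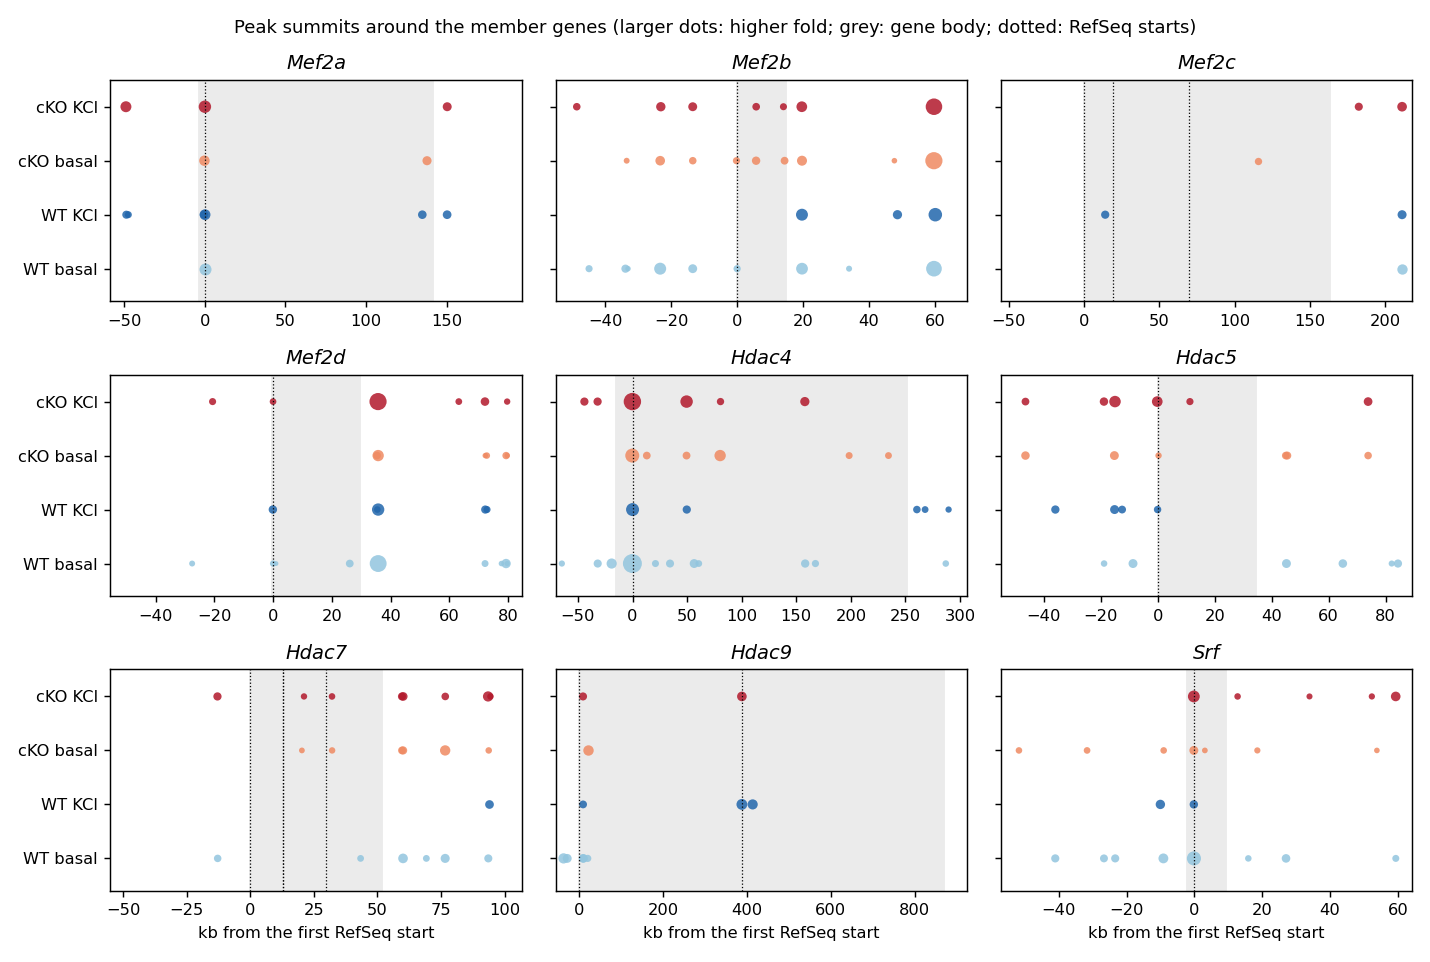
Each panel shows the peak summits around 1 gene in the 4 lists, by distance in kb from the first RefSeq start in the direction of transcription, with larger dots for a higher fold, grey for the gene body and dotted lines for RefSeq starts. Dots of all 4 lists stand together at the starts of Mef2a, Hdac4 and Srf, those of the KCl lists at the internal start of Hdac9, 388.2 kb from the first, while 66 of the 105 regions have a peak in 1 list only.

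Srf, the shortest of the 9 genes at 11.4 kb on chromosome 17, had 17 regions, of which 1 was shared by all lists, its own start (46556020 to 46556513). The fold was 3.86 in cKO KCl, 3.02 in cKO basal, 2.87 in WT KCl and 4.56 in WT basal, with 59, 50, 42 and 81 fragments. The order was thus WT basal, cKO KCl, cKO basal and WT KCl, in which the KCl list was lower than the basal list in WT and higher in cKO. With 1 list per condition, no call of a difference is made from it. The summits lay at −191, −191, −196 and −163 bp from the start, upstream of both CArG boxes, which were under the peak in every list.

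At the other 16 regions near Srf the fold was between 2.13 and 3.28. An end of Ptk7, 6.83 kb upstream, was in both basal lists (2.38 in cKO basal, 3.28 in WT basal), and an end of Dnph1, 49.9 kb downstream, in cKO KCl (3.21) and WT basal (2.49). The other 14 were in 1 list each, 3 in cKO KCl (2.24 to 2.36), 5 in cKO basal (2.13 to 2.40), 1 in WT KCl (3.14, within Ptk7) and 5 in WT basal (2.36 to 2.92), mostly within the neighbours Cul9 and Ptk7. By the counts in the 4 lists (5, 7, 2 and 8), Ggcx and Psmd1 had the same counts as Srf, and Spata3 stood at a summed difference of 1, which 9 genes shared.

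The patterns over the lists were also counted over all 105 regions. Regions in both cKO lists and in neither WT list numbered 6 (5.71%, lower bound of the interval 2.13), all near Mef2b, Hdac5 and Hdac7, with 2 at each, against 1.36% of all regions near genes. Regions in both WT lists and in neither cKO list numbered 0, against 1.89% near all genes. A count of 0 allows a share of up to 2.86% by the limit of 3 counts, and the exact interval reaches 3.45%. Regions in both KCl lists only numbered 4 (3.81%, 1.05 to 9.47; 1.39% near all genes), 2 at Mef2a and the starts of Hdac5 and Hdac9. Regions in both basal lists only numbered 6 (5.71%; 1.98% near all genes), 2 at Mef2b and 1 each at Mef2d, Hdac5, Hdac9 and Srf. Regions in every list but WT KCl numbered 5 (4.76%; 2.56% near all genes), at Mef2b, Mef2d and Hdac7. Regions in cKO KCl and WT basal together numbered 5 (4.76%; 3.93% near all genes), those in every list but cKO basal 3 (2.86%; 2.42%) and those in every list but WT basal 2 (1.90%; 0.733%). The pair of cKO basal and WT KCl, and the lists without cKO KCl, gave 0 regions each (0.744 and 0.755% near all genes). Alone in WT basal were 29 regions (27.6%; 28.0% near all genes), the commonest pattern.

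The comparison of cKO basal with WT basal asked how these loci differ when Brg1 is deleted in unstimulated neurons. Of the 9 genes, 1 had more regions in cKO basal (Mef2a), 5 had fewer (Mef2d, Hdac4, Hdac5, Hdac9 and Srf) and 3 had equal numbers, against 11.4% of all genes with more and 57.3% with fewer. The median difference was −1 region, as over all genes. Of 44 cKO basal peaks near the 9 genes, 23 (52.3%, 36.7 to 67.5) had no overlapping peak in WT basal, against 44.8% of all cKO basal peaks near genes, and among 56 WT basal peaks 37 (66.1%, 52.2 to 78.2) were without one in cKO basal, against 66.0%. Both background shares lay within the counting interval of the share near the 9 genes. The directions depended on the longer WT basal list: at equal list lengths 6 genes had more regions in cKO basal and 1 had fewer, against 29.1% of all genes with more and 29.8% with fewer. The WT basal list is also the one with gene-end peaks at 3 of 4 astrocyte markers, against 0 of 4 in cKO basal, and the part of this in the counts was not tested.

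In the comparison of cKO KCl with WT KCl, 6 genes had more regions in cKO KCl (Mef2b, Mef2d, Hdac4, Hdac5, Hdac7 and Srf), 2 had fewer (Mef2a and Hdac9) and Mef2c had equal numbers, against 42.0% of all genes with more and 20.2% with fewer. The median difference was 2 regions, and 0 over all genes. Of 45 cKO KCl peaks, 28 (62.2%, 46.5 to 76.2) had no peak in WT KCl, against 57.8% of all near genes. Of 31 WT KCl peaks, 12 (38.7%, 21.8 to 57.8) had none in cKO KCl, against 46.4%. Within 1 kb of an annotated end of any protein-coding gene, neighbours included, 9 of 14 cKO KCl peaks had no match in WT KCl. Of all such peaks 31.1% had none. Elsewhere 19 of 31 had none. Near all genes, 13253 of 22914 peaks in all and 3136 of 10077 at gene ends had none, so a larger share was unmatched elsewhere. At gene ends, 1 of 6 WT KCl peaks had no match in cKO KCl, where 19.0% of all had none, and elsewhere 11 of 25 had none. The peaks at the starts of Mef2a, Hdac4 and Srf and the internal start of Hdac9, matched in both KCl lists, count as elsewhere. At equal list lengths 3 genes had more regions in cKO KCl and 2 had fewer, against 29.4% of all genes with more and 29.2% with fewer.

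The response to KCl was described within each genotype, and these comparisons share their lists with those between genotypes. In WT, 2 genes had more regions after KCl (Mef2a and Mef2c) and the other 7 had fewer, against 11.3% of all genes with more and 57.2% with fewer. The median difference was −5 regions, against −1 over all genes. Of 56 WT basal peaks, 45 (80.4%, 67.6 to 89.8) had no peak in WT KCl, against 66.4% of all near genes, which lies below the interval. Within 1 kb of an annotated end of any protein-coding gene, 8 of 11 were unmatched, where 35.0% of all such peaks were. Elsewhere 37 of 45 were unmatched, where 84.2% of all were. Gene-end peaks were 11 of 56 here and 10697 of 29645 near all genes, so the overall shares mix the 2 classes differently. The part of this in the gap between the overall shares was not tested. The peaks at the starts of Mef2a, Hdac4 and Srf, matched in both lists, lie away from annotated ends and count as elsewhere. So does the second start peak of Mef2d, in WT basal only. Of 31 WT KCl peaks, 19 (61.3%, 42.2 to 78.2) had none in WT basal, against 45.1%. At annotated ends of any protein-coding gene 3 of 6 had none, against 19.5% of all, and elsewhere 16 of 25 had none. Near all genes, 8195 of 18187 peaks in all and 1685 of 8643 at gene ends had none. The unmatched peak at the internal start of Hdac9 is not among the 6. The WT KCl list was the shortest of the 4 and WT basal the longest. At equal list lengths 3 genes had more regions in WT KCl and 5 had fewer, against 30.1% of all genes with more and 29.0% with fewer. The share of WT basal peaks with none in WT KCl was then 75.0% (27 of 36, 57.8 to 87.9), against 51.8% of all near genes, which again lies below the interval. These 36 peaks are among the 56 above, and their shares at gene ends and elsewhere were not counted. WT basal also had gene-end peaks at 3 of 4 astrocyte markers, against 0 of 4 in WT KCl, and the part of this in the shares was not tested.

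In cKO, 6 genes had more regions after KCl (Mef2a, Mef2c, Mef2d, Hdac5, Hdac7 and Hdac9), 2 had fewer (Mef2b and Srf) and Hdac4 had equal numbers, against 42.2% of all genes with more and 20.1% with fewer. The median difference was 1 region, and 0 over all genes. Of 45 cKO KCl peaks, 24 (53.3%, 37.9 to 68.3) had no peak in cKO basal, against 57.6% of all near genes, and among 44 cKO basal peaks 22 (50.0%, 34.6 to 65.4) were without one in cKO KCl, against 46.8%. Mef2a and Mef2c were the 2 genes with more regions after KCl in both genotypes, and Mef2b and Srf the 2 with fewer in both. The share of all genes with the same direction in both genotypes was not counted, so these 2 counts have no background beside them. The number was higher after KCl in cKO and lower after KCl in WT at 4 of 9 genes, against 28.5% of all genes. At equal list lengths 4 genes had more regions in cKO KCl than in cKO basal and 3 had fewer, against 30.0% of all genes with more and 28.4% with fewer, and only Hdac9 had more after KCl in cKO and fewer in WT, as 2403 of the 21887 protein-coding genes did.

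**Figure D4:**
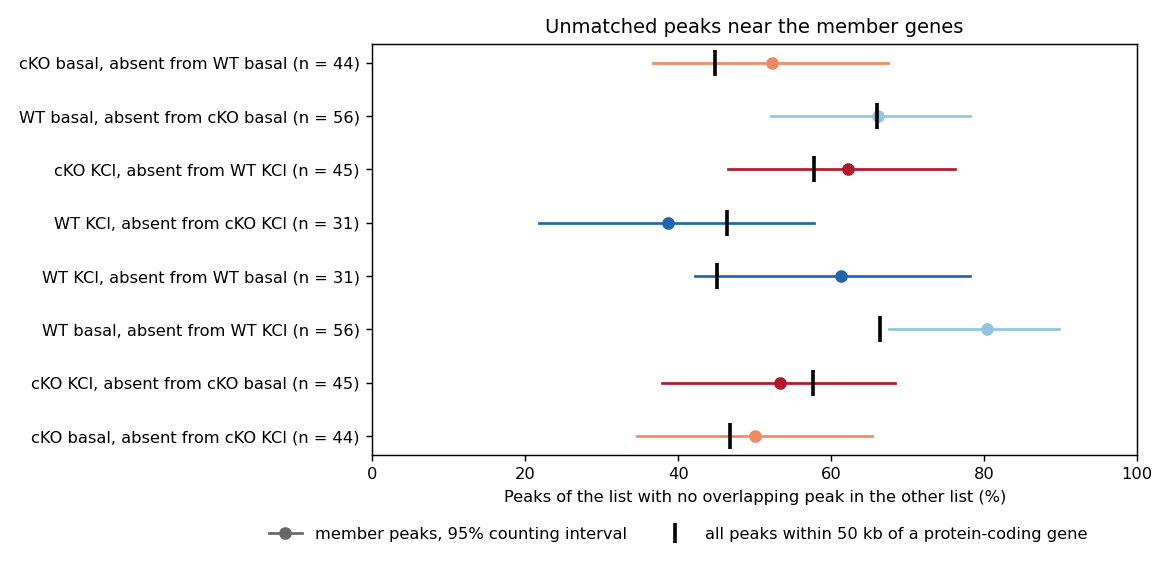
Points give the percentage of peaks of 1 list near the 9 genes with no overlapping peak in another list, with exact 95% Clopper-Pearson intervals (counting error only), and black ticks give the same percentage over all peaks within 50 kb of a protein-coding gene. The tick for WT basal peaks absent from WT KCl, at 66.4%, lies below the interval of 67.6 to 89.8%, and the other 7 ticks lie within theirs. In that comparison gene-end peaks were 11 of 56 near the 9 genes and 10697 of 29645 near all genes. The tick is not adjusted for this.

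Genes of the same pathway were counted by 5 lists, by whether a gene had more, fewer or equal numbers of regions. Of 7 SRF cofactor genes, which include the MRTF and TCF families, 0 had more and 6 fewer in cKO basal than in WT basal, 4 more and 1 fewer in cKO KCl than in WT KCl, 1 more and 5 fewer in WT KCl than in WT basal, and 6 more and 0 fewer in cKO KCl than in cKO basal. At equal list lengths these counts were 1 and 3, 2 and 3, 3 and 2, and 4 and 0. Elk3, a TCF, had 8 regions in cKO KCl, 3 in cKO basal, 2 in WT KCl and 3 in WT basal, and Mrtfb, an MRTF, had 3, 2, 6 and 8 in the same order. Of 8 SRF targets, the counts of more and fewer were 1 and 5, 3 and 2, 2 and 4, and 6 and 2 in the same 4 comparisons, and at equal list lengths 5 and 1, 2 and 4, 5 and 0, and 4 and 3. Among them Vcl, which encodes the adhesion protein vinculin, had a start peak in every list and 4 regions in cKO KCl, 3 in cKO basal, 4 in WT KCl and 3 in WT basal.

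Partners and regulators of class IIa deacetylases and MEF2 (15 genes, among them the corepressors Hdac3, Ncor1 and Cabin1, kinases of the Prkd, Sik and Mark families and the calcineurin subunits) had more and fewer regions in 3 and 8, 9 and 2, 2 and 12, and 8 and 5 genes in the same comparisons, and at equal list lengths in 8 and 3, 7 and 3, 6 and 5, and 6 and 6. Prkd1, a kinase that phosphorylates class IIa deacetylases, had 2 regions in cKO KCl, 2 in cKO basal, 0 in WT KCl and 2 in WT basal. Of 7 other zinc-dependent deacetylases, 0 and 3, 2 and 4, 3 and 4, and 3 and 3 had more and fewer, and at equal list lengths 3 and 1, 1 and 5, 4 and 1, and 1 and 3. Of 7 neuronal MEF2 targets, 1 and 3, 4 and 0, 1 and 4, and 4 and 1 did, and at equal list lengths 2 and 1, 3 and 1, 2 and 1, and 2 and 2. Homer1, a postsynaptic scaffold gene, had a start peak in every list and 2 regions in cKO KCl, 1 in cKO basal, 1 in WT KCl and 1 in WT basal. The shares of all genes given above for each comparison and list length apply to these counts, and the genes named here were chosen after their values were seen.

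A peak is called or not called at a threshold, here on few fragments, and the 2 libraries of a condition cannot be separated in these lists. The folds set side by side therefore describe the lists and carry no test between conditions.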

How the data were processed

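ATAC-seq was made from 8 libraries, 2 for each of 4 conditions. Per the submitters' processing notes, Bowtie2 and MACS2 were used with GRCm38 (mm10). The sources used here do not give versions, settings, duplicate removal, the Tn5 shift or the way the 2 libraries of each condition were combined. The authors deposited 1 narrowPeak list of nucleosome-free peaks per condition, whose name gives the genotype and treatment of the condition. Per peak the authors deposited a score, the fold over local background (a ratio), −log10 values for p and for q, and another number, the offset of the summit in bp. In the deposited lists, −log10 q began at values between 1.31 and 1.51. Values per peak are the authors' own. No columns of unmatched samples were present (0).

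From these, with Python 3.11.15, pandas 2.3.3, NumPy 2.4.6 and SciPy 1.17.1 (figures with Matplotlib 3.10.9), peaks overlapping by at least 1 bp were merged into regions. The 5 mitochondrial peaks of each list were left out. Whole-number fragment pileups were solved from (pileup + 1)/(background + 1) and the Poisson p-value, which matched 100.0% of the peaks of each list within 0.001. The scripts were tested on simulated data. Gene bodies came from the RefSeq table of GRCm38.p6 and starts from its promoter table, in which all 9 genes were found by symbol. Exons and introns were not analysed here. The depth of the libraries is unknown beyond the labels' 60 M paired reads of 75 bp per library, after 7 to 9 PCR cycles. With 1 list per condition no test was made, and shares carry exact Clopper-Pearson intervals.

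The genes and lists were chosen with earlier results of these data known. Named were the regions at a start or an end of a gene, those in 2 or more lists and the highest single-list region of each gene, and, for Hdac4 (the most regions) and Srf, the 3 genes with the closest counts, ties broken by gene length. Gene ends were fixed as within 1 kb of an annotated end, and the count by RefSeq starts was added after seeing the data. Alternatives were peaks of −log10 q of at least 3, lists of equal length, windows of 10 and 100 kb, gene ends within 2 kb and a reciprocal overlap of 50%.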

Additional observations from a re-analysis of the deposited data

Results flagged for a closer look

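In 4 genes the number of regions was higher after KCl in cKO and lower after KCl in WT. The same held for 28.5% of all genes. At equal list lengths it held for Hdac9 only among the 9 genes, with 2 regions in cKO KCl and 1 in cKO basal, beside 3 in WT KCl and 4 in WT basal. With all peaks, the difference of the changes, cKO minus WT, was 8 regions at Mef2d, which had 6 in cKO KCl and 4 in cKO basal, beside 3 in WT KCl and 9 in WT basal. It was 7 regions at Hdac7, with 8 in cKO KCl and 6 in cKO basal, beside 1 in WT KCl and 6 in WT basal. It was 3 regions at Hdac5, with 6 in cKO KCl and 5 in cKO basal, beside 4 in WT KCl and 6 in WT basal. It was also 3 regions at Hdac9, with 2 in cKO KCl and 1 in cKO basal, beside 3 in WT KCl and 5 in WT basal. These differences were not tested, since each condition has 1 list. Over all genes the directions were the same, with a mean change of 0.508 regions after KCl in cKO and −1.21 in WT.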

How the results depend on the processing

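No paired analysis was possible because each condition has 1 list, in which its 2 libraries are not separate, and for the same reason no library could be left out. For the 13 main values (8 shares of unmatched peaks, the share of regions in all 4 lists and 4 counts of genes with a gene-end peak), in 53 of 60 alternatives the value stayed within the counting interval of a share or within 1.5 times a count, a change of exactly 1.5 times included. The exceptions are these. With peaks of −log10 q of at least 3, the share of cKO basal peaks absent from cKO KCl was 31.0%, against 50.0% with all peaks, and the genes with a gene-end peak in cKO basal numbered 1. With every list cut to its strongest 20229 peaks, the genes with a gene-end peak in WT basal numbered 1. With RefSeq starts in place of annotated ends, chosen after seeing the data, the counts were 6 in cKO KCl, 5 in cKO basal, 6 in WT KCl and 5 in WT basal, against 3, 2, 2 and 2, since the starts of Mef2a, Hdac4 and Srf and the internal start of Hdac9 lie away from the annotated ends.

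The count of member regions changed order between the basal lists: at equal list lengths it was 40 in cKO basal and 36 in WT basal, against 41 and 56 with all peaks. The comparison of region counts per gene by list length, given with each comparison, was chosen after seeing the data. Under the stricter q-value the count was 27 in cKO basal and 42 in WT basal. Region by region, 41 were followed: the 39 in 2 or more lists, the second start peak of Mef2d and the cKO basal peak beside the Hdac5 start. Of these 41, 9 changed their number of lists under the stricter q-value and 7 at equal list lengths. The other regions in 1 list were not followed. The 4 regions in both KCl lists only kept that pattern under both stricter settings. The start of Mef2d lost its WT basal peak at equal list lengths, and the second start peak of Mef2d was not called under either setting. Of the Mef2d regions at Gm3764, that in all 4 lists was in 3 under both settings, and that in every list but WT KCl was in none under the stricter q-value and in cKO basal only at equal list lengths. The Hdac5 region in cKO KCl and WT basal was in cKO KCl only under both settings, and the Srf region at Dnph1 was so at equal list lengths. The region of Hdac9 in both basal lists was in cKO basal only under both settings. Under the stricter q-value the Hdac9 region 9.76 kb inside the gene lost its WT KCl peak, the cKO basal peak beside the Hdac5 start was not called, and the Srf region at Ptk7 and the Mef2b region 33.4 kb upstream were in WT basal only. Pileups of 22 to 40 fragments limit the regions in 1 list.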
